A study of Mus musculus with 360 samples.

Results

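The hearts of mice exposed to 250 ppm 1,2-dichlorobenzene were compared with the hearts of unexposed mice. The comparison holds 17 of the 360 libraries of the series, chosen by their labels: tissue heart, compound 1,2-dichlorobenzene, marked as used by the submitters, at 250 ppm (7 animals) or 0 ppm (10 animals). All animals were female B6D2F1/Crl (BDF-1) mice, a hybrid strain, aged 9 weeks, and carried no genetic modification named in the labels. Pieces of heart of about 5 mm3 were taken into RNAlater on study day 5, the heart following the lung in the order of collection. RNA was measured with TempO-Seq on the Mouse S1500+ panel, in which detector probes that ligate on their target transcript are amplified and counted. The other heart libraries were from animals at 1, 10, 30 and 100 ppm of the same compound (5 animals each), and from a parallel set exposed to the para isomer, 1,4-dichlorobenzene, with its own 0 ppm animals. Labels give concentrations in ppm and no route of exposure.

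Heart muscle is built of cardiomyocytes, which fill most of its volume, with capillary endothelium, fibroblasts, resident macrophages and the blood held in its vessels. Chemokines such as Ccl2 and Ccl7 bind the receptor Ccr2 and draw monocytes from the blood, and MHC class II molecules present peptides to helper T cells on macrophages and dendritic cells. In a bulk sample, fewer cells of a type and less RNA per cell cannot be told apart.

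The deposited totals were 8059118 to 11512411 counts per library at 250 ppm and 8602245 to 13468363 counts at 0 ppm. The cardiomyocyte genes Myl2, the ventricular regulatory light chain, and Tnnt2, cardiac troponin T, took 14.1% and 12.5% of the heart counts on average, and all 14 cardiomyocyte probes of the panel were detected. The summed level of these 14 probes was 145150 to 332090 CPM (counts scaled to the size of the library, with trimmed-mean factors) at 250 ppm and 232550 to 348180 CPM at 0 ppm. Exposed animal 501 had the lowest cardiomyocyte sum and the highest sums of hepatocyte markers (1591 CPM) and adipocyte markers (268 CPM) among the 17 hearts. Of its hepatocyte sum, the Hp probe alone made up 1390 CPM. Unexposed animal 4 stood apart from the other 9 unexposed hearts in macrophage, MHC class II and interferon transcripts. Values without these animals are given below where they end a call.

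Of 2454 probes tested, 218 (8.88%) were called at an adjusted p under 0.05 in edgeR's quasi-likelihood test with Benjamini-Hochberg adjustment (two-sided; all p-values of heart changes below are from it). At 250 ppm 100 probes (4.07%) were higher and the remaining 4.81% were lower, and the median log2 change over all probes was -0.003. At 12 higher probes (0.489%) every exposed heart lay above every unexposed heart, and at 12 lower probes (0.489%) every exposed heart lay below. Without animals 501 and 4 together, 95 probes were called higher and 78 lower. The p-values measure the spread between animals.

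**Figure D1:**
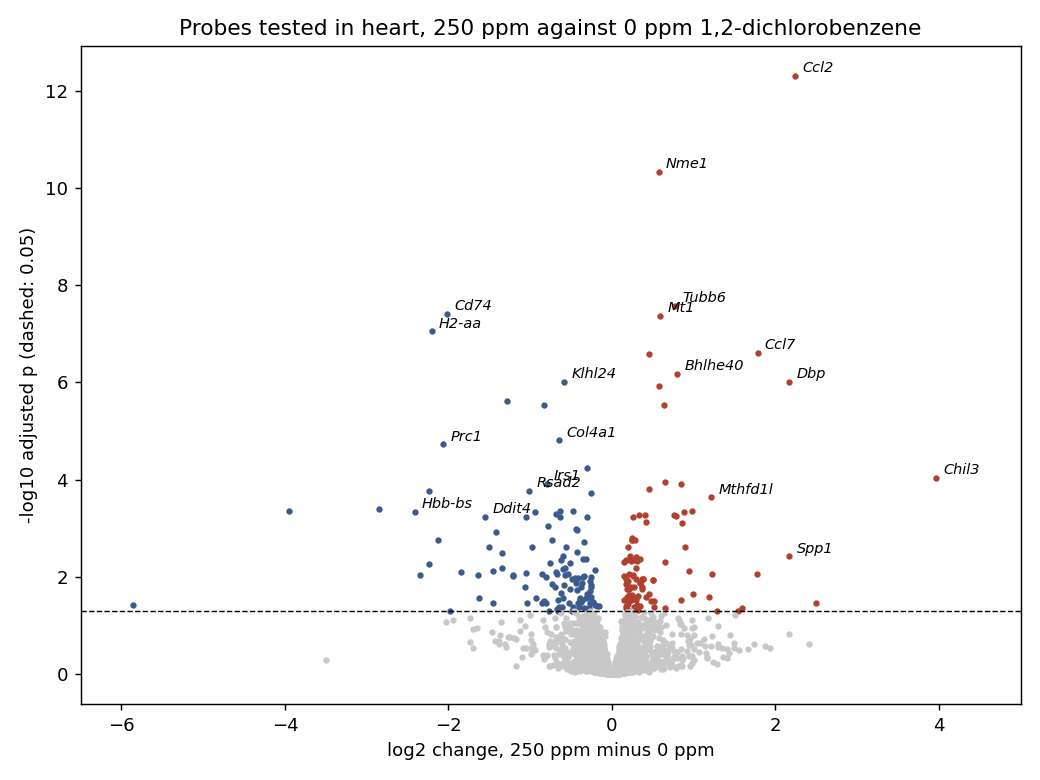
Each point is 1 of the 2454 probes tested, placed by its log2 change, 250 ppm minus 0 ppm (horizontal), and by the -log10 of its adjusted p (vertical). Red points were called higher and blue points lower. Ccl2 and Nme1 stand highest on the right, Cd74 and H2-aa on the left.

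The transcript with the smallest adjusted p was the monocyte chemokine Ccl2. It was present at 81.7, 134.9 and 390 CPM (lowest, median and highest animal) in exposed hearts, against 25.9, 35.5 and 70.9 CPM in unexposed hearts. All 7 exposed hearts lay above all 10 unexposed ones, and animals 506R and 505 had the highest values. The log2 change was 2.24 ± 0.20 (SE, adjusted p = 5e-13). Ccl7, encoded beside Ccl2 and binding the same receptor, reached 49.8, 72 and 168 CPM at 250 ppm, against 12.8, 21.7 and 74.8 CPM at 0 ppm. This was a log2 change of 1.78 ± 0.25 (adjusted p = 2.46e-07). The highest unexposed value was that of animal 4 and was the one value that overlapped the exposed range. Without animals 501 and 4, the log2 changes were 2.42 for Ccl2 and 2.18 for Ccl7.

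A further mouse chemokine of this cluster, Ccl12, was higher at 250 ppm by 1.19 ± 0.36 on the log2 scale (adjusted p = 0.0252), and was no longer called without exposed animal 506R (adjusted p = 0.129). Chil3, a chitinase-like protein secreted by macrophages, was near the detection limit in unexposed hearts. It reached 0.122, 1.77 and 6.20 CPM at 250 ppm, against 0, 0.098 and 0.776 CPM at 0 ppm (adjusted p = 9.24e-05), with the 3 highest values in animals 506R, 505 and 501. Spp1, osteopontin, was present at 3.77, 7.24 and 19.7 CPM at 250 ppm, against 0.601, 2.03 and 4.28 CPM at 0 ppm. The rise was 2.17 ± 0.53 on the log2 scale (adjusted p = 0.0038). Exposed animal 506R, the highest for Ccl2 and Ccl7, was the lowest exposed animal for Spp1 and the only one within the unexposed range. Stat3, the transcription factor downstream of interleukin 6 family cytokines, rose by 0.34 ± 0.09 (adjusted p = 0.013).

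Over the list of inflammation genes, 5 of 34 tested probes were higher and 1 was lower, with a median log2 change of 0.13. Called probes made up 17.6% of the list, against 8.88% of all probes. The higher ones were Ccl2, Ccl7, Chil3, Stat3 and Cxcl1, a neutrophil chemokine whose call was lost on leaving out any of 10 animals in turn. The lower one was Cxcl12, which retains leukocytes in bone marrow and tissues. Without animals 501 and 4, 9 probes of the list were higher and none was lower, and without animal 4 alone 11 were higher.

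The macrophage markers did not move one way. The summed level of their 7 probes was 895, 1063 and 1617 CPM at 250 ppm, against 984, 1246 and 3022 CPM at 0 ppm. Cd68, a lysosomal macrophage protein, was called higher by 0.34 (adjusted p = 0.0388), a call lost on leaving out any of 9 animals. Csf1r, the receptor for macrophage colony-stimulating factor, was called lower from values under 3 CPM in every heart (adjusted p = 0.0266), and the call was lost without animal 4 or any of exposed animals 503, 505 and 506R. Lyz2 and C1qb, which code for lysozyme and a complement C1 subunit, had log2 changes of -0.32 and -0.19 and were not called. Of the 6 neutrophil probes Elane was at 0 in every heart. The neutrophil sum was 13.2, 35.4 and 56.8 CPM at 250 ppm, against 5.03, 14.3 and 63.4 CPM at 0 ppm, and none of the 3 tested probes was called. The part of immune cell number in the chemokine result was not tested.

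**Figure D2:**
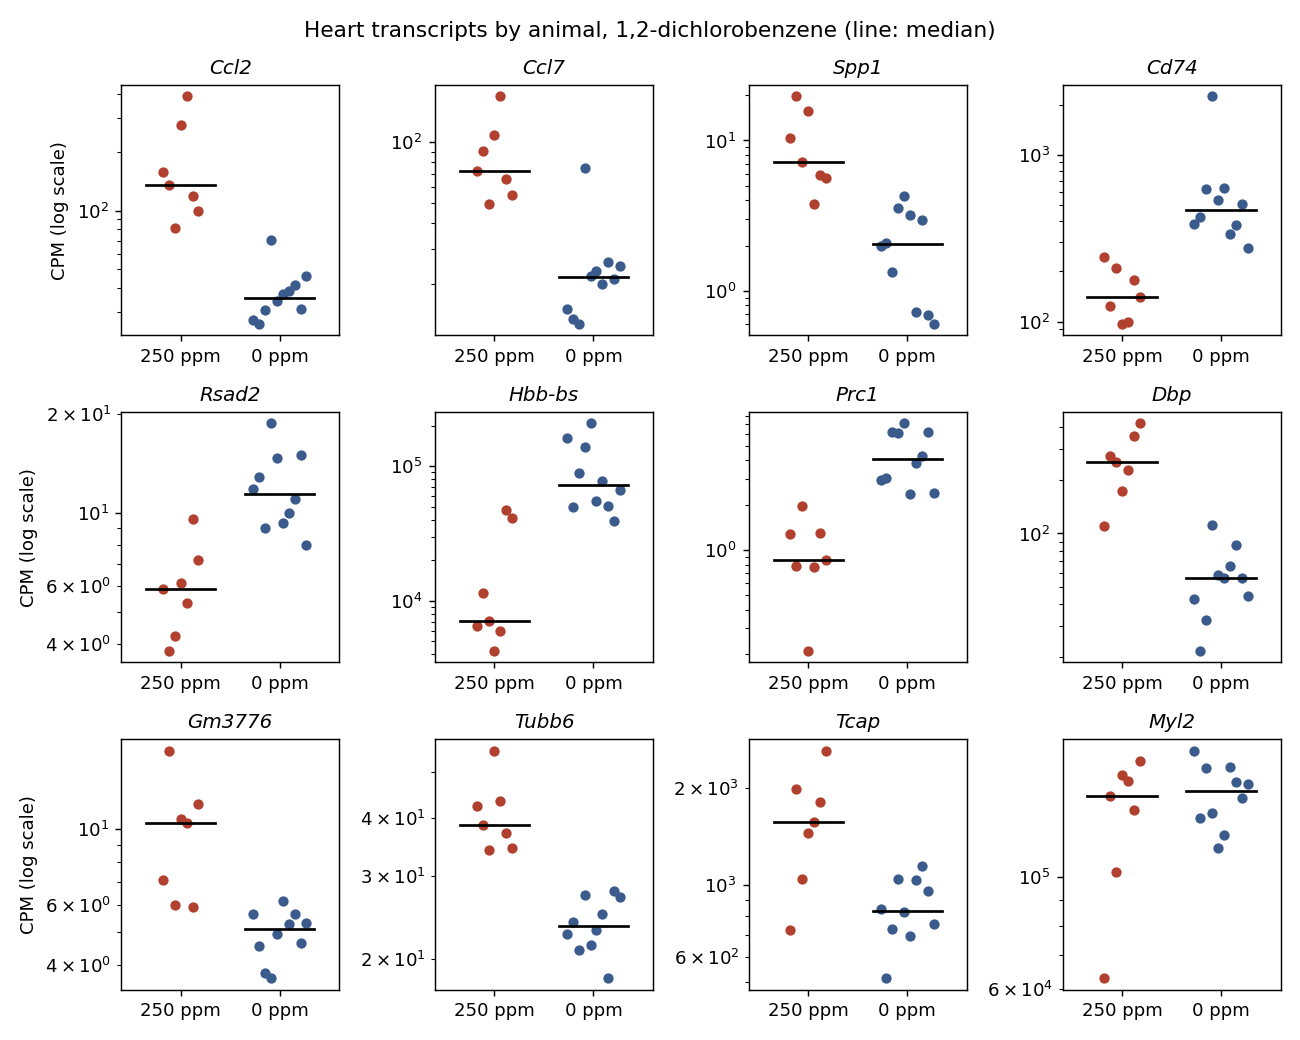
Levels of 12 transcripts in each heart, in CPM on log axes, with 7 exposed animals on the left (red) and 10 unexposed animals on the right (blue) of each panel, and a line at the median. Ccl2, Cd74, Prc1 and Tubb6 do not overlap between the groups, while Myl2 does.

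Transcripts of antigen presentation by MHC class II were lower. Cd74, the invariant chain that guides class II molecules through the cell, was present at 96.9, 140 and 244 CPM at 250 ppm, against 277, 464 and 2242 CPM at 0 ppm. The groups did not overlap, and the highest unexposed value was that of animal 4. The log2 change was -2.02 ± 0.26 (adjusted p = 3.88e-08), and -1.67 (adjusted p = 1.45e-09) without animals 501 and 4. H2-aa, the alpha chain of the class II molecule I-A, was present at 6.43, 9.04 and 18.8 CPM at 250 ppm, against 18, 38.5 and 204 CPM at 0 ppm. A single exposed heart reached into the unexposed range, and the log2 change was -2.21 ± 0.29 (adjusted p = 8.88e-08). H2-dma, which loads peptides onto class II molecules, was at or below 2.35 CPM in every heart and was not called. Pla2g2d, a secreted phospholipase of lymphoid tissue dendritic cells and macrophages, was also lower without overlap, at 2.33, 3.54 and 4.47 CPM against 6.79, 8.12 and 11.2 CPM at 0 ppm (log2 change -1.29, adjusted p = 2.4e-06). It was picked after its values were seen.

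MHC class I and interferon-inducible transcripts were lower as well. Of the interferon response list, 6 of 23 tested probes were lower (26.1% called, against 8.88% of all probes) and none was higher. 22 of the 23 had a log2 change below 0, and the median was -0.44. Rsad2, viperin, an antiviral enzyme, was present at 3.80, 5.88 and 9.58 CPM at 250 ppm, against 8.02, 11.5 and 18.7 CPM at 0 ppm. Its log2 change was -1.01 ± 0.19 (adjusted p = 1.67e-04). Ifi44 and Ifit2 fell by 0.78 and 0.57 on the log2 scale, and Psmb9, the immunoproteasome subunit that trims class I peptides, by 0.69. The remaining called members were the interferon-inducible GTPases Iigp1 and Igtp.

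The T-cell-specific GTPases Tgtp1 and Tgtp2, near-identical genes whose probes may share reads, fell by 1.45 (adjusted p = 0.0074) and 1.42 (adjusted p = 0.0012). H2-k1 and H2-T23, class I molecules, fell by 0.76 and 0.62, and H2-Q6 by 1.35. Class I genes resemble each other closely, so the probes may not tell them apart. The largest unexposed value of Psmb9, Tgtp1, Tgtp2, H2-k1 and H2-T23 was that of animal 4. Without animals 501 and 4, 5 probes of the interferon list were lower, the median was -0.32, Rsad2 had a log2 change of -0.90 (adjusted p = 0.0023), and Tgtp1 (adjusted p = 0.103) and H2-Q6 (adjusted p = 0.065) were no longer called.

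Hemoglobin transcripts, carried into a heart piece by young red cells in its blood, were lower in every exposed animal than the median unexposed animal. Hbb-bs, an adult beta globin, was present at 4227, 7124 and 47147 CPM at 250 ppm, against 39453, 71921 and 207460 CPM at 0 ppm. The log2 change was -2.41 ± 0.49 (adjusted p = 4.54e-04). Animals 507 and 508 had 47150 and 40990 CPM and lay within the unexposed range, whereas the other 5 exposed hearts lay between 4227 and 11360 CPM. Alas2, the red cell enzyme of the first step of heme synthesis, fell by 2.23 ± 0.56 (adjusted p = 0.0053). Hba-a1 and Hba-a2, alpha globins that differ by few bases and may share reads, fell by 2.12 to 2.86. In all, 5 of 6 tested red cell probes were lower and none was higher. Hemoglobin probes made up 0.548% to 6.7% of an exposed library and 5.93% to 26% of an unexposed one. How blood content, perfusion or red cell age bear on these values was not tested.

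Part of the cell division transcripts were lower. Of 54 tested probes in the cell cycle list, 9 were lower (16.7% called, against 8.88% of all probes) and none was higher. The lower ones were Prc1, Ndc80, Hmmr, Kif20a, Pole, Top2a, Cenpe, Kif23 and Mki67. 41 of the 54 had a log2 change below 0, and the median was -0.40. Prc1, which bundles microtubules of the central spindle, was present at 0.211, 0.855 and 1.98 CPM at 250 ppm, against 2.37, 4.06 and 7.08 CPM at 0 ppm. The groups did not overlap, and the log2 change was -2.06 ± 0.35 (adjusted p = 1.88e-05). Kif20a, a kinesin of cytokinesis, was present at 1.29, 3.05 and 3.67 CPM against 3.83, 4.63 and 5.85 CPM at 0 ppm, also without overlap (log2 change -0.81, adjusted p = 0.0098), and was not called without animals 501 and 4 (adjusted p = 0.066). Ndc80, which couples kinetochores to microtubules, fell by 1.85 (adjusted p = 0.0078). Top2a, the topoisomerase of replicating cells, fell by 1.06 (adjusted p = 0.0162), a call lost without exposed animal 506R (adjusted p = 0.0594). Casc5, the older symbol of the kinetochore scaffold Knl1, fell by 1.50 and Fam64a, the older symbol of Pimreg, by 1.64. The summed level of the whole list, 312 to 329 CPM at 250 ppm and 308 to 378 CPM at 0 ppm, overlapped between the groups. Without animals 501 and 4, 5 of the 54 probes were lower.

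The promoters of 7 of the 9 lower cell cycle genes could be read from RefSeq (GRCm38.p6, 250 bases before to 50 bases after the gene start). TTTGAA, the core of the cell cycle genes homology region bound by the DREAM repressor complex, was sought on both strands and was present in 6 of the 7, and in 20.2% of 27025 mouse promoters. CCAAT, the box bound by the factor NF-Y, was present in 6 of the 7, and in 41.1% of all promoters. List members that were not called were not counted separately, so these shares do not set the lower genes apart from the rest of the list. Among all genes called in either direction, 19 of the 158 with a promoter held TTTGAA. In the promoters shown no site of one motif overlaps a site of the other, and both motifs were chosen after the changes were seen. The promoters of Prc1 (chr7:80294201-80294500, plus strand), whose groups did not overlap, and of Top2a (chr11:99024140-99024439, minus strand), which holds the most sites, are shown 5′ to 3′ with TTTGAA and CCAAT, or their reverse complements, in capitals.
Prc1: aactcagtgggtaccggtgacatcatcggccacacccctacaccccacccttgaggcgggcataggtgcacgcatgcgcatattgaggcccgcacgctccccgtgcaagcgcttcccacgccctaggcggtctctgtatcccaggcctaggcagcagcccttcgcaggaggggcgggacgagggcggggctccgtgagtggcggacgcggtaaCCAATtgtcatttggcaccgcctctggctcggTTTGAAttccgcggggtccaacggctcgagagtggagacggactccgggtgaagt
Top2a: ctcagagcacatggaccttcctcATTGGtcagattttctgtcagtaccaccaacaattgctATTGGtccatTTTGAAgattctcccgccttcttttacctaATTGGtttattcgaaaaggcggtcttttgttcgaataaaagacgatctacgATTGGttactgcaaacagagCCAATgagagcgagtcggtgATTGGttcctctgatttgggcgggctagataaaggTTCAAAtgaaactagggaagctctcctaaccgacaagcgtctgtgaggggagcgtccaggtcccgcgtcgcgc
In Prc1 the CCAAT box begins 37 bases before the gene start and TTTGAA begins 5 bases before it. Top2a holds 6 CCAAT boxes and 2 TTTGAA sites, the nearer of these beginning 23 bases before the start. A match of letters is a description of these windows and no evidence that a factor binds there.

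Among the lower interferon genes, 2 of the 5 with a promoter (Igtp and Rsad2) held the core of the interferon-stimulated response element, sought on both strands, which was present in 3.99% of all promoters. Interferon list members that were not called were not counted separately here either, and this motif too was chosen after the changes were seen. The Rsad2 promoter (chr12:26456403-26456702, minus strand) is shown with that site in capitals, on its reverse strand and beginning 120 bases before the gene start.
Rsad2: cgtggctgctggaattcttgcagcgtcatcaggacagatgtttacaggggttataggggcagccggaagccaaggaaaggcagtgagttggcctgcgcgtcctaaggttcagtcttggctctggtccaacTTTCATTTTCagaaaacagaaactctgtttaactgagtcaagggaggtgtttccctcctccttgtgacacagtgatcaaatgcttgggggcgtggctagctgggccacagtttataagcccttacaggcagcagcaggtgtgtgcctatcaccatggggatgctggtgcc
The same window of Dbp, Hlf and Nfil3, the 3 of 4 called clock genes with a promoter, held no E-box CACGTG and no D-box TTATGNAA. Those motifs were present in 8.09% and 3.99% of all promoters. Other motifs were sought in called genes of other lists. The antioxidant element was in 1 of 5 NRF2 targets with a promoter (14% of all promoters). The glucocorticoid element was in 1 of 5 glucocorticoid response genes (0.537%) and the heat shock element in 1 of 2 heat shock genes (0.662%).

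Clock output genes were higher. Dbp, a transcription factor whose level swings widely over the day, was present at 110, 254 and 418 CPM at 250 ppm, against 21.7, 56.1 and 111.02 CPM at 0 ppm. The lowest exposed value, that of animal 501, and the highest unexposed value, that of animal 4, were about equal. The log2 change was 2.17 ± 0.32 (adjusted p = 9.73e-07). Hlf, a related factor, rose by 0.78 ± 0.16 (adjusted p = 5.68e-04). Bhlhe40, a repressor of clock genes, was higher without overlap at both of its probes, by 0.80 and 0.84. Nfil3, which represses the sites that Dbp activates, fell by 0.60 ± 0.14 (adjusted p = 0.0038). In all, 4 of 6 tested clock probes were higher and 1 was lower. The hour at which each animal was killed is not in the labels, and its part in these values and in those that follow Dbp was not tested. With Dbp level as a covariate, 181 probes were called at 250 ppm, of which 97 were among the 218 called without it. The red cell and MHC class II lists had the same counts of calls. The cell cycle list then had 1 lower probe, Prc1, the interferon list 4, the glucocorticoid list 1 and the apoptosis list 1, against 9, 6, 4 and 3 without it. The inflammation list again had 5 higher and 1 lower, but Stat3 (adjusted p = 0.0653) and Cxcl1 (adjusted p = 0.464) were not among them. Of the clock genes besides Dbp, Hlf (log2 change 0.086, adjusted p = 0.825) and Nfil3 (0.023, adjusted p = 0.951) lost their calls, while both Bhlhe40 probes kept theirs. Other genes named here that lost their call with this covariate were Ccl12, Cd68, Csf1r, Ifi44, Psmb9, H2-k1, H2-T23, Rad51ap1, Ephx1, Por, Abcg1, Fas, Egfr, Rps6, Tcap, Tuba4a, Tubb3, Tubg1, Stmn1, Casc5, Fam64a and Tspan4.

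Of 11 tested glutathione transferase probes, a group counted after the values were seen, 4 were higher and none was lower. The 4 higher ones were the alpha-class probes, and the 7 of other classes were not called (log2 changes of -0.21 to 0.21). Gm3776, a gene of the alpha-class transferases, was present at 5.92, 10.4 and 17 CPM at 250 ppm, against 3.66, 5.10 and 6.18 CPM at 0 ppm. All but 2 of the exposed hearts lay above every unexposed heart, and the log2 change was 0.98 ± 0.20 (adjusted p = 4.3e-04). Gsta3 rose by 0.88 ± 0.18 (adjusted p = 4.54e-04). Gsta1 and Gsta2 were higher by 0.94 (adjusted p = 0.0074) and 1.22 (adjusted p = 0.0088), calls lost without exposed animal 503 (adjusted p = 0.065 and 0.0617). With the Dbp covariate Gsta3 alone of the 4 was called. Of the alpha-class genes, Gsta1, Gsta2 and Gm3776 are near-identical and their probes may share reads. Ephx1, microsomal epoxide hydrolase, was higher by 0.46 (adjusted p = 0.0221), a call lost without exposed animal 507. Nqo1, a quinone reductase widely used as a marker of the oxidative stress factor NRF2, was at 62.1, 118.4 and 144.7 CPM at 250 ppm, against 87.2, 96.1 and 122.5 CPM at 0 ppm, and was not called (adjusted p = 0.734). Over the NRF2 target list 4 of 28 tested probes were higher and 1 was lower, the autophagy receptor Sqstm1 (log2 change -0.26), whose call was lost without any of 3 animals. The median was 0.18, and 17.9% of the list was called, against 8.88% of all probes. Por, the reductase that feeds electrons to cytochromes P450, was called higher by 0.51 (adjusted p = 0.031), and not without animal 501 or any of 3 unexposed animals. Animal 501 had the highest Por value and the highest hepatocyte and adipocyte sums, the hepatocyte sum being mostly the Hp probe. The part of these sums in the Por value was not tested.

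Of 14 tested glucocorticoid response probes 1 was higher and 4 were lower, with a median log2 change of -0.13. Called probes made up 35.7% of the list, against 8.88% of all probes. Mt1, a metallothionein induced by metals and glucocorticoids, was at 60.5, 89.4 and 99.5 CPM at 250 ppm against 51.5, 58 and 66.9 CPM at 0 ppm. All exposed hearts but animal 504 lay above every unexposed heart, and the log2 change was 0.59 ± 0.08 (adjusted p = 4.22e-08). Ddit4, an inhibitor of mTOR signalling induced by stress and glucocorticoids, was present at 9.97, 12.5 and 22 CPM at 250 ppm, against 17, 30.7 and 74.4 CPM at 0 ppm. Its log2 change was -1.55 ± 0.32 (adjusted p = 5.84e-04). Cebpb, a transcription factor of acute responses, fell by 0.69 ± 0.14 and Tsc22d3, the glucocorticoid-induced leucine zipper, by 0.38 ± 0.11. With Dbp level as a covariate, the log2 change of Ddit4 was -0.07 (adjusted p = 0.926), Cebpb (adjusted p = 0.105) and Tsc22d3 (adjusted p = 0.378) were no longer called, and 1 probe of the list was lower.

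Cdkn1a, the p53-induced inhibitor p21, fell by 0.85 ± 0.23 (adjusted p = 0.0088), and had a log2 change of 0.13 (adjusted p = 0.754) with the Dbp covariate. Its median was 31.01 CPM at 0 ppm and 18.9 CPM at 250 ppm. At 10, 30 and 100 ppm the medians were lower still, at 10.73, 10.45 and 13.12 CPM. Gadd45a, a DNA damage gene, fell by 0.57 and 0.67 at its 2 probes, 1 of which was not called without animals 501 and 4 (adjusted p = 0.0602), and Fas, the death receptor, by 0.47 ± 0.10 (adjusted p = 4.3e-04). Of 20 tested p53 target probes 4 were lower (20% called, against 8.88% of all probes) and none was higher, with a median of -0.09. Jun, a component of the factor AP-1, was at 65.3, 73.9 and 94.5 CPM at 250 ppm, against 97, 121.4 and 143.2 CPM at 0 ppm, without overlap (log2 change -0.63, adjusted p = 4.3e-04). Its partner Fosl1 was higher by 1.78 ± 0.47 (adjusted p = 0.0086) from a median of 0.583 CPM in unexposed hearts. These were the only called probes among 17 immediate early probes (11.8%, against 8.88% of all probes). Of 23 tested heat shock probes 3 were lower (13% called, against 8.88% of all probes), and each of these calls was lost on leaving out single animals. None was called without animals 501 and 4. The 3 included an Hspa8 probe with a median of 1.23 CPM at 250 ppm. Another Hspa8 probe, with a median of 28960 CPM, had a log2 change of 0.25 and was not called (adjusted p = 0.0928). Without animal 501 it was called higher by 0.30 (adjusted p = 0.047).

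The collagen IV probes Col4a1 and Col4a2 and the endothelial probe Cldn5 were lower, while most members of their lists were not called. Col4a1, a chain of the basement membrane collagen IV, was at 164, 181 and 213 CPM at 250 ppm, against 227, 271 and 435 CPM at 0 ppm, without overlap. Its log2 change was -0.64 ± 0.11 (adjusted p = 1.55e-05). Col4a2, the partner chain, fell by 0.44 ± 0.09 (adjusted p = 0.001). Lama2, a laminin chain, fell by 0.27, a call lost without animal 501. With Spp1 as the single higher probe, the extracellular matrix list had 1 higher and 3 lower of 38 tested probes. Called probes made up 10.5% of the list, against 8.88% of all probes. The list's median log2 change was 0.06, with 21 probes above 0. Cldn5, a tight junction protein of endothelium, was at 1.95, 3.23 and 3.90 CPM at 250 ppm, against 4.10, 5.92 and 7.39 CPM at 0 ppm, without overlap (log2 change -0.94, adjusted p = 4.63e-04). It was the only called probe of 12 endothelial marker probes (8.33%, against 8.88% of all probes), of which 5 had a log2 change above 0 and 7 below. Kdr, the main receptor for vascular endothelial growth factor (log2 change -0.29, adjusted p = 0.0655), and Cav1, the coat protein of caveolae (log2 change -0.21, adjusted p = 0.0542), were not called. The endothelial marker sum was 992, 1028 and 1721 CPM at 250 ppm, against 1010, 1139 and 1421 CPM at 0 ppm.

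Cytoskeletal tubulins were higher, a group chosen after the values were seen. Of 8 tested tubulin probes 6 were higher and none was lower, with a median log2 change of 0.46. Tubb6, a beta tubulin, was at 34.2, 38.6 and 55.5 CPM at 250 ppm, against 18.2, 23.5 and 28 CPM at 0 ppm, without overlap (log2 change 0.78 ± 0.10, adjusted p = 2.66e-08). Tubb2c, the older symbol of Tubb4b, rose by 0.64 ± 0.10 (adjusted p = 2.9e-06). Tuba1b, an alpha tubulin, rose by 0.41 and Tuba4a, another, by 0.51. Tubg1, the gamma tubulin that nucleates microtubules, rose by 0.25. Tubb3 was higher by 1.29 (adjusted p = 0.0498), a call lost on leaving out any of 12 animals. Tubb2a (log2 change 0.01) and Tuba3b (-0.28) were not called.

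Growth and metabolic genes showed scattered changes. Irs1, the adaptor of the insulin receptor, was at 4.74, 6.42 and 7.74 CPM at 250 ppm, against 7.98, 11.5 and 13 CPM at 0 ppm, without overlap (log2 change -0.80 ± 0.15, adjusted p = 1.21e-04). Egfr, the epidermal growth factor receptor, fell by 0.62 (adjusted p = 0.0215), a call lost without any of 3 exposed animals. Rps6, a ribosomal protein phosphorylated downstream of mTOR, rose by 0.24 ± 0.06 (adjusted p = 0.0047). Hk1, a hexokinase, rose by 0.40 ± 0.08 (adjusted p = 5.24e-04). Abcg1, which exports cholesterol from cells, was at 7.45, 9.79 and 13 CPM at 250 ppm, against 3.48, 5.54 and 7.10 CPM at 0 ppm, without overlap (log2 change 0.86 ± 0.18, adjusted p = 7.65e-04). Mthfd1l, a mitochondrial enzyme of one-carbon metabolism, rose by 1.22 ± 0.24 (adjusted p = 2.28e-04). Cox7a1, the muscle form of a cytochrome oxidase subunit, fell by 0.51 ± 0.13 and was the only called probe among 30 mitochondrial respiration probes. Among 21 probes of fatty acid oxidation, the main fuel pathway of heart muscle, 1 was lower (Acaa1a) and none was higher.

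Of 14 tested cardiomyocyte probes 13 had a log2 change below 0, with a median of -0.15, and none of these was called. The single called probe was higher, Tcap, the telethonin that caps titin at the Z-disc, at 727, 1562 and 2601 CPM at 250 ppm against 514, 833 and 1143 CPM at 0 ppm. Its log2 change was 0.90 ± 0.21 (adjusted p = 0.0024). 5 of the exposed hearts lay above every unexposed heart, and animal 501 lay below the unexposed median. Myl2 was at 63031, 145040 and 169620 CPM at 250 ppm against 114180, 148080 and 178180 CPM at 0 ppm, and its log2 change of -0.14 ± 0.20 was not called (adjusted p = 0.748). Tnnt2 had a log2 change of -0.07 ± 0.14 (adjusted p = 0.834) and Ttn, titin, of -0.34 ± 0.19 (adjusted p = 0.265). Without animal 501 the median of the cardiomyocyte list was -0.07. Myl2, Tnnt2 and Ttn then had log2 changes of -0.006, 0.04 and -0.27. Acta1, the skeletal actin re-expressed in loaded hearts, had a change of -0.80 ± 0.34 (adjusted p = 0.133). None of the 4 tested probes of the cardiac stress list was called.

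**Figure D3:**
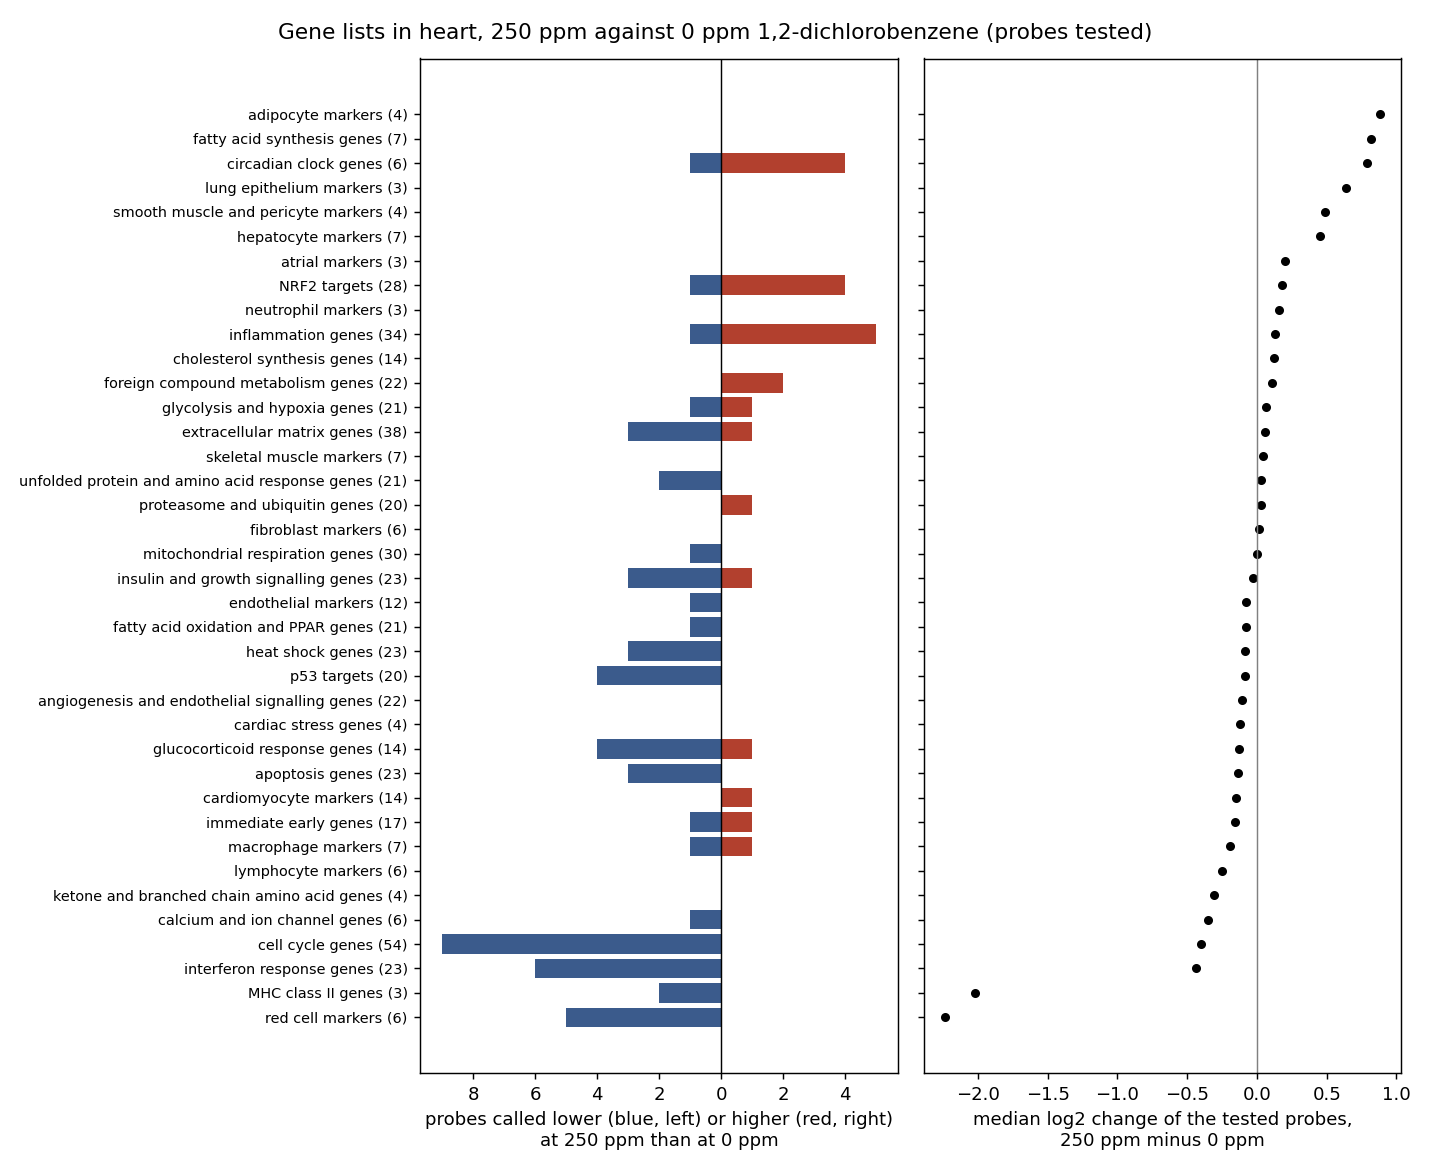
Bars on the left count the probes of each gene list called lower (blue) or higher (red) in heart at 250 ppm than at 0 ppm, with the number tested in brackets. Points on the right give the list's median log2 change. The red cell, MHC class II, interferon and cell cycle lists have the lowest medians, and the high median of the adipocyte markers has no called probe beside it.

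Several of the probes that separated the groups without overlap belonged to no list and were picked after their values were seen. Nme1, a nucleoside diphosphate kinase, was at 499, 512 and 666 CPM at 250 ppm, against 296, 362 and 398 CPM at 0 ppm. Its log2 change of 0.57 ± 0.06 had an adjusted p of 4.65e-11. Eif5, an initiation factor that activates GTP hydrolysis at the start codon, rose by 0.45 ± 0.06 (adjusted p = 2.62e-07). Sertad1, a regulator of CDK4, rose by 0.57 ± 0.09 (adjusted p = 1.21e-06). G0s2, the inhibitor of adipose triglyceride lipase, was at 346, 424 and 518 CPM at 250 ppm, against 184, 289 and 344 CPM at 0 ppm (log2 change 0.65 ± 0.12, adjusted p = 1.1e-04). On the lower side, Klhl24, a ubiquitin ligase adaptor linked to inherited heart muscle disease in humans, was at 784, 1154 and 1361 CPM at 250 ppm, against 1461, 1693 and 1821 CPM at 0 ppm. Its log2 change was -0.58 ± 0.09 (adjusted p = 9.8e-07). Eif4b, a translation initiation factor, fell by 0.31 ± 0.05 and Ctnnb1, beta-catenin, by 0.25 ± 0.05 (adjusted p = 5.81e-05 and 1.84e-04). Tspan4, a tetraspanin and 1 of the 15 largest rises, was higher by 1.00 (adjusted p = 0.0221), a call lost without exposed animal 508 or 503.

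At lower concentrations few probes were called: 0 of 2454 (0%) at 1 ppm by edgeR and 0 by DESeq2, where 102 passed 0.05 before adjustment in edgeR, 24 at 10 ppm (0.978%), 50 at 30 ppm (2.04%) and 18 at 100 ppm (0.733%). All concentrations share the same 10 unexposed hearts, so their changes are given side by side. The clock genes had about their full change from 10 ppm upward, with 4 of 6 probes higher and 1 lower at each of 10, 30 and 100 ppm. Dbp had log2 changes of -0.60 at 1 ppm, 2.31 at 10 ppm, 2.29 at 30 ppm, 1.94 at 100 ppm and 2.17 at 250 ppm. Rsad2 had -0.35, -0.94, -0.80, -0.90 and -1.01 over the same concentrations. The Prc1 values were 0.06, -1.74, -1.83, -0.71 and -2.06, with no call at 100 ppm. These 3 transcripts did not follow concentration step by step above 10 ppm. The interferon list had median log2 changes of 0.07, -0.49, -0.60, -0.52 and -0.44 from 1 to 250 ppm. It had 0, 3, 4, 5 and 6 lower probes. The cell cycle list had 0.03, -0.49, -0.42, -0.14 and -0.40, with 0, 4, 6, 0 and 9 lower probes. The Mthfd1l median was 2.23 CPM at 0 ppm and 4.80, 5.83, 4.93 and 5.05 CPM at 10, 30, 100 and 250 ppm. Over these groups Tcap had 833, 1643, 1540, 1233 and 1562 CPM, and Col4a1 271, 199, 205, 206 and 181 CPM.

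Ccl2, Ccl7 and the hemoglobin probes, in contrast, were called at 250 ppm and at no lower concentration. Ccl2 had log2 changes of -0.23, 0.02, 0.20, 0.29 and 2.24 from 1 to 250 ppm, and its median level was 33.6, 39.7, 43.03, 43.7 and 134.9 CPM. Hbb-bs had -0.59, -0.36, -0.04, -1.11 and -2.41. Cd74 had -0.36, -0.79, -1.19, -0.85 and -2.02, and was also called at 30 ppm (adjusted p = 0.0094). The median red cell sum was 53169 CPM at 100 ppm and 10008 CPM at 250 ppm. Mt1 had log2 changes of 0.10, 0.21, 0.30, 0.03 and 0.59 and was also called at 30 ppm. Nme1 had 0.13, 0.19, 0.15, 0.25 and 0.57. Whether the change at 250 ppm differs from that at 100 ppm was not tested.

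**Figure D4:**
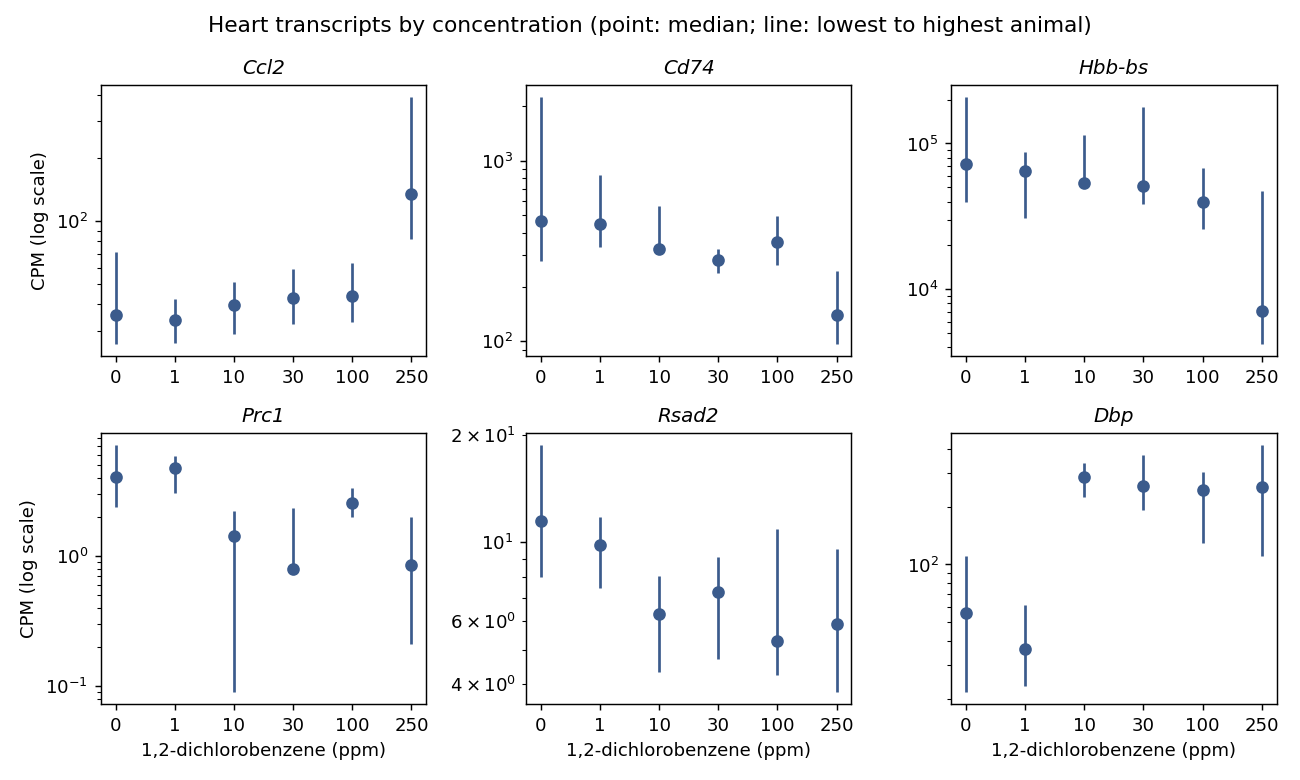
Levels of 6 transcripts in hearts by concentration of 1,2-dichlorobenzene, in CPM on log axes. Points are medians and lines run from the lowest to the highest animal, with 10 animals at 0 ppm, 7 at 250 ppm and 5 at each other concentration. At 250 ppm the Ccl2 range lies above the unexposed range. The Hbb-bs median at 250 ppm lies below the unexposed range, which its highest animals still reach. Dbp is already high at 10 ppm.

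The para isomer was given at other concentrations, so its values stand beside these without a comparison. Hearts at 400 ppm 1,4-dichlorobenzene (5 animals), against the 10 unexposed hearts of that set, had 318 called probes (13%), 217 higher and 101 lower, and those at 150 ppm had 668 (27.2%), 375 higher and 293 lower. The log2 change of Ccl2 was 2.24 at 250 ppm of the ortho isomer and 0.94 at 400 ppm of the para isomer. Ccl7 had 1.78 and 1.26, and Dbp 2.17 and 2.00. Hbb-bs had -2.41 and 0.52, Cd74 -2.02 and -0.26, and Prc1 -2.06 and 0.16. Abcg1 had 0.86 and 1.23, and Tubb6 0.78 and 0.67. The isomers differ in whether the chlorine atoms sit on neighbouring or on opposite carbons of the benzene ring.

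The heart was then set against the liver (6 exposed and 9 unexposed animals) and the lung (6 and 10) of the same mice. The change at 250 ppm differed between heart and liver at 707 of 2569 probes (27.5%) and between heart and lung at 248 of 2610 (9.5%), in edgeR's test of the interaction. The heart change was the lower one at 438 probes against liver (17%) and at 174 against lung (6.67%). The split against liver moved with the scaling: 38% of the differences were higher in heart with trimmed-mean scaling, 52.4% with median-of-ratios scaling and 54.5% with animal as a block. Of the 218 heart calls, 96 (44%) had a called difference against liver and 54 (24.8%) against lung. Of all probes tested in both heart and the other organ, 1132 of 2302 were called in liver and 829 of 2433 in lung. Of the 214 heart calls tested in liver, 66.4% were also called there, in either direction, which is 12.5% of the liver calls. In the same direction there were 103, or 48.1% of the heart calls and 9.1% of the liver calls. In lung 59.2% of 218 were also called, which is 15.6% of the lung calls, and 104 in the same direction, or 47.7% of the heart calls and 12.5% of the lung calls.

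Cell division genes separated the heart from both organs. Against 0 higher and 9 lower probes of the list in heart, 60 of 63 were higher in liver, where 25.1% of all tested probes were higher, and 54 of 64 were higher in lung, where 17.6% were. The heart change was lower than the liver change at 55 of 60 probes and lower than the lung change at 40 of 60. Prc1 had a log2 change of -2.06 in heart and 5.49 ± 0.65 in liver, where its median was 123.6 CPM at 250 ppm and 1.88 CPM at 0 ppm. In lung it rose by 1.82 ± 0.22, with medians of 37.9 CPM at 250 ppm and 18.5 CPM at 0 ppm. The difference was -7.57 against liver (adjusted p = 2.15e-12) and -3.88 against lung (adjusted p = 2.88e-06). For Kif20a it was -6.07 and -2.89. Stmn1, a microtubule-destabilising protein of dividing cells, changed by -0.37 in heart, a call lost without any of 6 animals, and differed by -4.25 from liver and by -0.67 from lung.

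Detoxification genes differed in size. Gsta1 rose by 0.94 ± 0.24 in heart, against 7.22 ± 0.37 in liver and 5.35 ± 0.24 in lung. The differences were -6.32 and -4.40, and those of Gm3776 were -5.65 and -3.90. Nqo1, with a log2 change of 0.12 in heart that was not called, rose by 2.08 in liver and 2.88 in lung. The heart change was lower than that of liver (difference -2.001, adjusted p = 6.21e-10) and that of lung (difference -2.76, adjusted p = 7.85e-12). Of the NRF2 target list, 22 of 31 probes were higher in liver and 23 of 29 in lung. The heart change was lower at 14 of 31 and 14 of 28. Gsta3, by contrast, rose by 0.88 in heart, 0.51 in liver and 0.95 in lung, and no difference from heart was called.

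For Ccl2, Ccl7 and Dbp no difference between heart and the other organs was called, with or without animal as a block. Ccl2 rose by 2.24 ± 0.20 in heart, against 1.14 ± 0.35 in liver and 2.07 ± 0.31 in lung (adjusted p of the difference = 0.168 and 0.89). Hbb-bs fell by 2.41 ± 0.49 in heart, 3.00 ± 0.48 in liver and 2.21 ± 0.40 in lung. Its difference against liver had an adjusted p of 0.635, and of 0.0155 with animal as a block. The alpha globin probes also differed from liver with the block only, by 1.51 (adjusted p = 1.64e-04) and 2.42 (adjusted p = 0.0426) at the Hba-a1 probes and by 1.33 (adjusted p = 0.0019) at Hba-a2, the heart change being the smaller fall. Dbp rose by 2.17 in heart, 1.70 in liver and 1.98 in lung. Of the 6 clock probes 2 differed from liver, 1 of the Bhlhe40 probes by 1.04 (adjusted p = 0.0012) and Nfil3 by 0.78 (adjusted p = 0.0149), and none differed from lung. Rsad2 fell by 1.01 in heart, 0.95 in liver and 1.39 in lung. A p that misses the threshold does not show that changes were equal.

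A few transcripts moved unlike 1 of the organs. Cd74 fell by 2.02 in heart, 2.08 in liver and 0.55 in lung, and the heart change was lower than that of lung by 1.46 (adjusted p = 0.0209). Chil3 rose by 3.97 in heart and changed by 0.36 in lung, where its medians were 1977 CPM at 250 ppm and 1555 CPM at 0 ppm, a difference of 3.68 (adjusted p = 4.67e-04). Abcg1 rose by 0.86 in heart and fell by 0.53 in lung, a difference of 1.398. Ddit4 fell by 1.55 ± 0.32 in heart, rose by 1.34 ± 0.23 in liver and changed by -0.17 in lung, differences of -2.92 and -1.38. Egfr fell by 0.62 in heart and by 2.85 in liver, a difference of 2.21. Col4a1 fell by 0.64 in heart and rose by 0.38 in liver, and the heart change was lower by 1.06 (adjusted p = 2.35e-04).

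**Figure D5:**
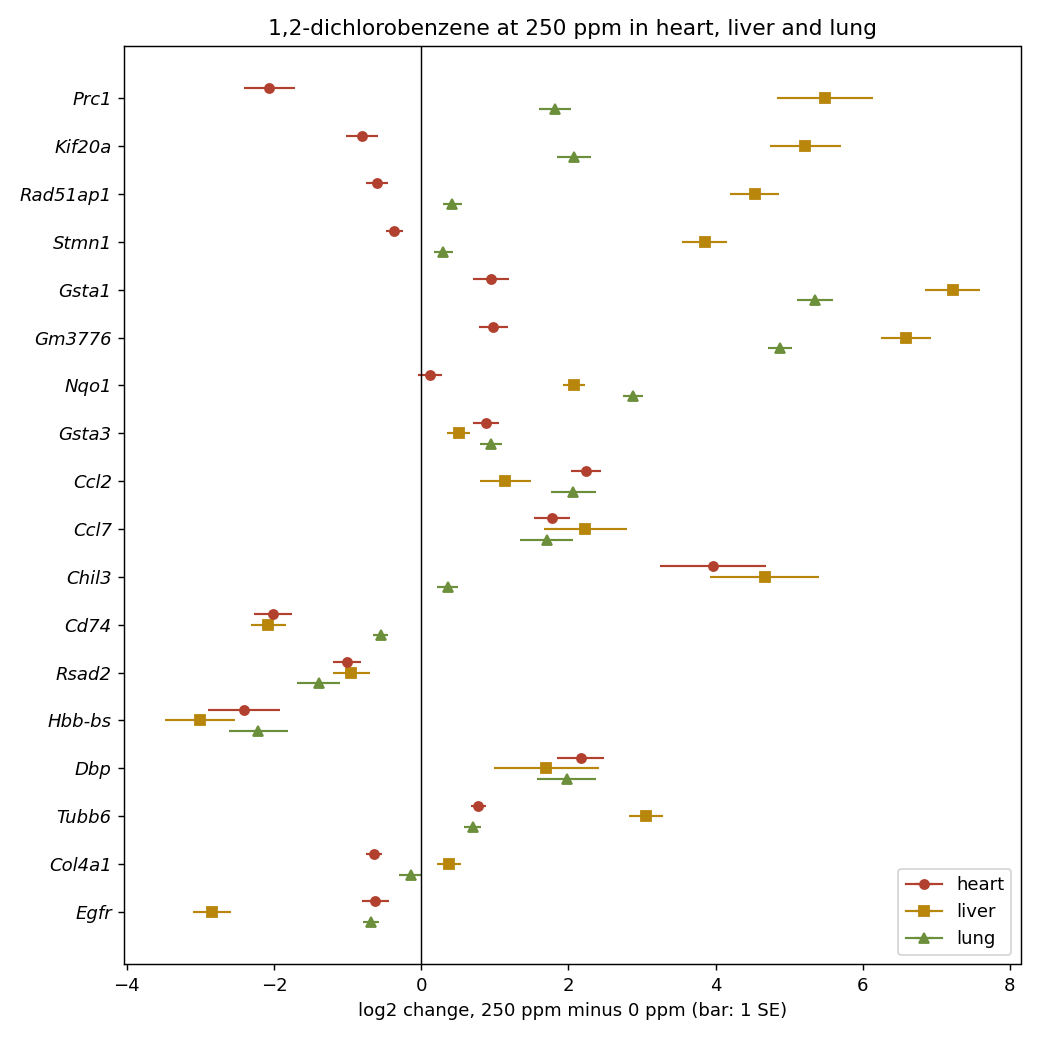
Log2 changes at 250 ppm minus 0 ppm of 18 transcripts in heart (red circles), liver (gold squares) and lung (green triangles), with bars of 1 SE. Prc1, Kif20a and Rad51ap1 lie left of 0 in heart and right of 0 in the other organs, while Hbb-bs, Rsad2 and Dbp lie on the same side in all 3.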

How the data were processed

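Heart RNA from 17 mice was measured with the TempO-Seq Mouse S1500+ panel (3154 probes for 2756 genes). The deposited values are whole-number read counts per probe, adjusted by the authors for probe attenuation, per the name of their table. Reads were aligned with Bowtie 1.3.1, per the submitters' processing notes. The attenuation factors, probe sequences and genome build are not given in the sources used here. Of 2914 probes, 59 held only whole multiples of a factor between 2 and 21.

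All 72 heart libraries were fitted together in edgeR 4.0.16 (R 4.3.3) with trimmed-mean scaling, its expression filter and its quasi-likelihood test, with Benjamini-Hochberg adjustment over 2454 probes and calls at an adjusted p under 0.05. Totals of 8059118 to 13468363 counts per library limit precision for probes under about 1 CPM. Heart and organ changes were compared in a model of both tissues, without a block. The organs came from the same animals, by animal number. The deviations of paired libraries correlated by -0.0517 to 0.324 between heart and liver (15 animals) and by -0.092 to 0.326 between heart and lung (16 animals). On simulated data with 2420 probes, the heart test recovered 79 of 100 probes changed by a log2 of 1 and 99 of 100 changed by 2, and called 10 unchanged probes. No replicate pair agreed within sampling noise.

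Named genes are the 15 largest rises and falls among called probes whose mean count was 20 or more, together with 4 called and 3 other members, at most, of each of 39 gene lists. Genes outside the rule are marked in the text, and not every gene the rule names is reported here. The comparison and the lists were chosen with earlier results of these data known. Alternatives were other scalings, DESeq2 1.42.0, no filter, fewer groups in the fit, attenuation undone, Dbp as a covariate, each animal left out and animal as a block.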

Additional observations from a re-analysis of the deposited data

Results flagged for a closer look

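In 24 of 216 sets of values (a transcript in the 7 exposed or the 10 unexposed hearts), 1 animal lay far from the rest by Dixon's criterion, which chance gives in about 1 of 20. Of these, 11 concerned unexposed animal 4, the highest of its group in each: Ccl7 at 74.8 CPM, Cd68 at 59.3, Lyz2 at 2353, C1qb at 279, Cd74 at 2242, H2-aa at 204, Psmb9 at 30.1, Tgtp1 at 43.8, Tgtp2 at 221, H2-k1 at 143.3 and H2-T23 at 60.7 CPM. Exposed animal 501 was set apart 5 times: it was the lowest of its group for Tnnt2 (69940 CPM), Hk1 (672 CPM) and Ctnnb1 (905 CPM) and the highest for Lgals1 (623 CPM) and Nme1 (666 CPM). Exposed animal 508 was the highest for Ifit2 (14.9 CPM) and Rad51ap1 (11.7 CPM). Exposed animal 504 was the lowest for Mt1 (60.5 CPM), animal 505 the lowest for Sertad1 (44.1 CPM), and animal 503 the highest for Ddit4 (22 CPM). Among unexposed animals, animal 1 was the lowest for Gsta2 (0.424 CPM), animal 2 the lowest for Nme1 (296 CPM) and animal 9 the highest for Col4a1 (435 CPM).

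The change at 250 ppm differed between heart and liver, heart minus liver on the log2 scale, for Prc1 (-7.57), Kif20a (-6.07), Gsta1 (-6.32), Gm3776 (-5.65), Nqo1 (-2.001), Stmn1 (-4.25), Ddit4 (-2.92), Egfr (2.21) and Col4a1 (-1.06). Between heart and lung it differed for Prc1 (-3.88), Kif20a (-2.89), Gsta1 (-4.40), Gm3776 (-3.90), Nqo1 (-2.76), Stmn1 (-0.673), Cd74 (-1.46), Chil3 (3.68), Abcg1 (1.398) and Ddit4 (-1.38). Each difference was tested as an interaction term. Its cause was not tested.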

How the results depend on the processing

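Of 218 probes called at 250 ppm, other settings gave 181 (Dbp as a covariate) to 228 (DESeq2), except that fitting only the 17 animals gave 66 higher and 82 lower, and leaving out 1 animal gave 169 (without 506R) to 248 (without 504). Leaving out 1 animal gave 12 to 32 calls at 10 ppm (24 with all), 24 to 61 at 30 ppm (50 with all), 7 to 21 at 100 ppm (18 with all), 0 at 1 ppm, and 87 (without 501 of that set) to 428 at 400 ppm of 1,4-dichlorobenzene (318 with all). With Dbp as a covariate there was 1 call at 10 ppm, 2 at 30 ppm and 552 at 400 ppm of 1,4-dichlorobenzene. With animals of the same compound only there were 28 at 30 ppm and 11 at 100 ppm, and with the groups compared only, 2 at 100 ppm. Of 86 called probes named here, 86 were also called by DESeq2 and with attenuation undone, 85 with median-of-ratios scaling and 47 with the Dbp covariate, which by its construction removes what moves with Dbp. That covariate turned the sign of Dbp (-0.0020), Nfil3 (0.023), Cdkn1a (0.13) and Tcap (-0.32). Fitting only the 17 animals tested 82 of the named probes and kept 67 calls. Among the 15 lost were Ccl12, Cxcl1, Cd68, Psmb9, H2-k1, Top2a, Fam64a, Cdkn1a, Ephx1, Por, Sqstm1, Egfr, Lama2 and Tspan4. With animal as a block, 727 probes differed between heart and liver and 237 between heart and lung, against 707 and 248 without. The block changed the globin calls against liver given above. Depth limits transcripts at or under 1 CPM, such as Hmmr and Mki67. Unless stated, the cause of a difference between settings was not tested.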
